A study of Bos taurus with 138 samples.

Results

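The genes described here are the 10 nuclear genes that encode the machinery copying and transcribing mitochondrial DNA: TFAM, POLG, POLG2, TWNK, SSBP1, POLRMT, TFB1M, TFB2M, TEFM and MGME1. They were taken as a list of gene symbols by their function from the 16706 symbols with expected counts, and all 10 had a row. RNA was sequenced at 6 stages of bovine (Bos taurus) development, namely germinal vesicle (GV) oocytes, metaphase II (MII) oocytes, 2-cell embryos, 8-cell embryos, morulae and blastocysts. At each stage, lysates were separated on 2 sucrose gradients (A and B), where an mRNA loaded with more ribosomes travels deeper, and 10 fractions, F1 to F10, were taken from each. Whole oocytes or embryos of each stage were also sequenced as 3 transcriptomes (A, B and C), so that there were 120 fraction libraries and 18 transcriptomes. Per the study's methods, F1 and F2 hold free RNA, F3 to F5 monosomes, F6 and F7 an intermediate class and F8 to F10 polysomes.

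All oocytes came from slaughterhouse ovaries. GV oocytes were collected immature, MII oocytes were matured in vitro, and the 4 embryo stages were fertilised in vitro with semen of a single Holstein bull and then cultured, with only embryos of the best morphological grade kept. Every group received cycloheximide, which halts ribosomes on their mRNA, before collection, and the zona pellucida was taken off. The labels call the gradients and the transcriptomes biological replicates but name no separate cultures. The p-values of tests between groups thus measure the spread between these libraries. Each library pooled many oocytes or embryos, and a smaller number of cells of a type cannot be told apart from less RNA per cell.

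Mitochondria keep a small circular genome that encodes a few subunits of the respiratory chain, and every factor that maintains it is imported from the cytosol. TFAM coats and bends that DNA and opens its promoters, where the polymerase POLRMT starts RNA chains with TFB2M and extends them with the elongation factor TEFM. The helicase TWNK unwinds the DNA for the polymerase POLG and its accessory subunit POLG2, SSBP1 covers the single strands, and the exonuclease MGME1 trims the ends. Oocytes carry very large numbers of mitochondrial genomes, and copying is thought to pause through early cleavage in mammals.

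The total of expected counts lay between 1229382 and 17342859 in the fraction libraries and between 3269386 and 11812567 in the transcriptomes, and the 3 blastocyst transcriptomes were the shallowest of the latter. Levels are CPM with TMM factors (counts per 1e6 counts of a library after its scaling), and 3 counts, the floor below which a level is not resolved, correspond to 0.254 to 0.918 CPM in the transcriptomes and to 0.0762 to 0.133 CPM in the polysome pools described below. The summed level of 7 oocyte markers was between 14140 and 16830 CPM in GV oocytes and between 34.3 and 108 CPM in blastocysts. The sum of 6 trophectoderm and blastocyst markers ran the other way, from 48.6 to 57.7 CPM in GV oocytes to between 4815 and 5630 CPM in blastocysts. The 9 markers of cumulus and granulosa cells, the follicle cells that surround the oocyte, summed to between 50.8 and 63.1 CPM in GV oocytes and between 312 and 424 CPM in MII oocytes. Their sum was between 142 and 166 CPM in 2-cell embryos and between 108 and 338 CPM in 8-cell embryos. It was between 11.7 and 18.3 CPM in morulae and between 11.9 and 21.1 CPM in blastocysts. At GV, 2 of these 9 (COL1A1 and COL3A1) were at 0 in all transcriptomes. Their part in the results below was not tested. The 13 protein-coding genes of the mitochondrial genome itself took 0.480% ± 0.0477 (SD, n = 3) of the transcriptome counts at GV, 1.01% ± 0.310 at MII and 1.18% ± 0.161 at the 2-cell stage. Their share was then 5.21% ± 0.704 at the 8-cell stage, 5.96% ± 0.575 for morulae and 20.8% ± 2.11 for blastocysts.

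**Figure D1:**
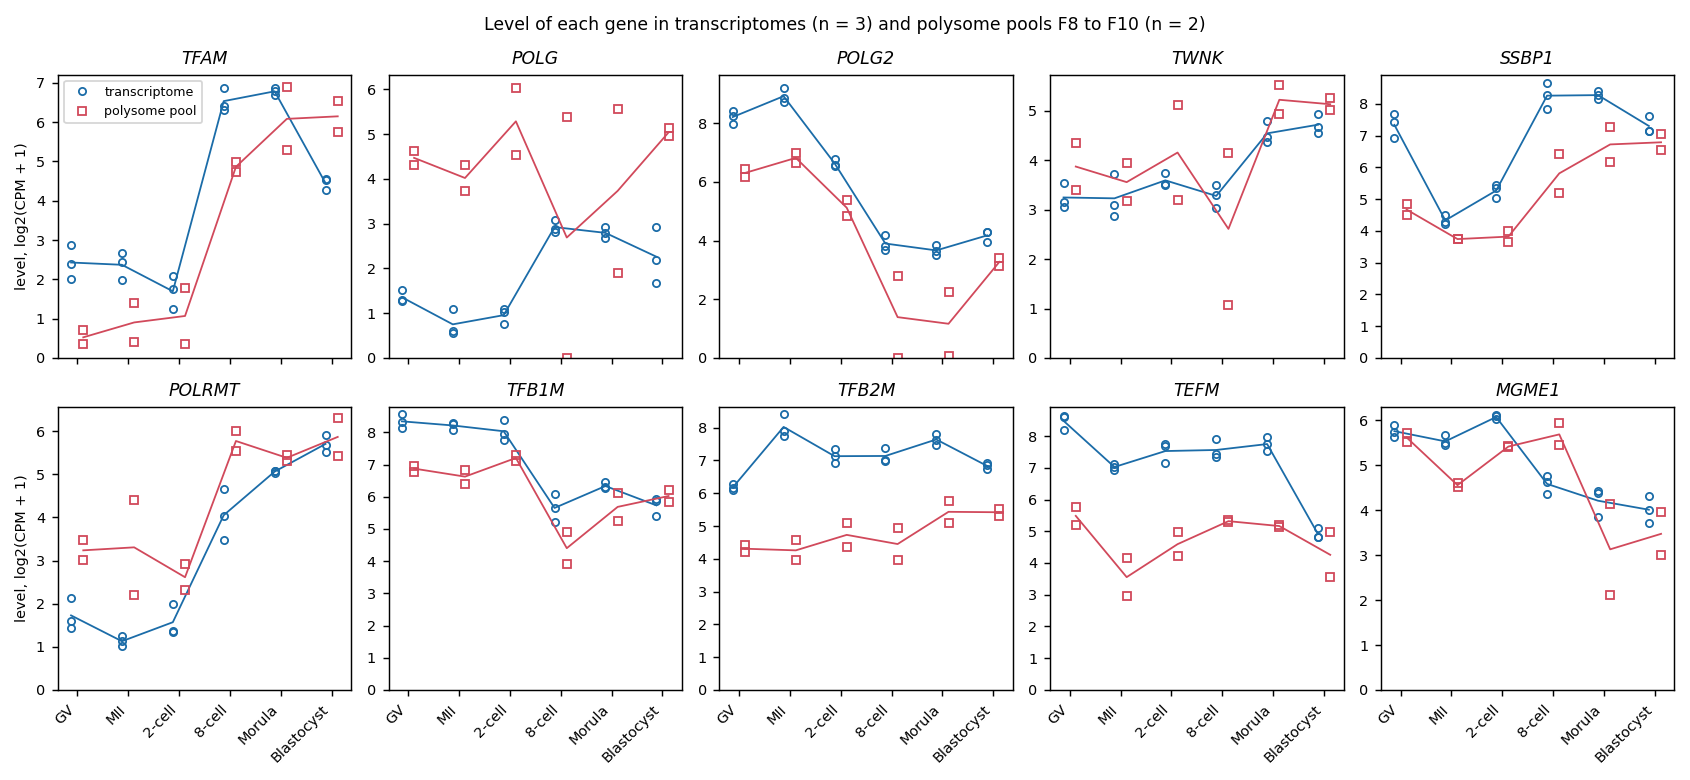
Levels of the 10 genes as log2(CPM + 1) on the y axis against stage on the x axis, with 1 circle per transcriptome (n = 3), 1 square per polysome pool (F8 to F10 of 1 gradient, n = 2) and lines through the means. TFAM, SSBP1 and POLRMT transcriptomes step up at the 8-cell stage while those of POLG2, TFB1M and MGME1 step down, and the polysome squares of TFB2M lie under its circles at every stage.

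The first question was how the whole-cell level of these mRNAs moved from one stage to the next. Changes were tested with the quasi-likelihood test of edgeR in 1 model of the 18 transcriptomes and 12 polysome pools (F8, F9 and F10 summed within a gradient), and a change was called at a Benjamini-Hochberg adjusted p below 0.05 over 14612 genes. All 10 genes passed the filter on low counts. From GV to MII, 3 of the 10 changed (SSBP1 and TEFM lower, TFB2M higher), against 18.6% of all genes tested. From MII to the 2-cell stage, 2 of the 10 changed (SSBP1 higher, TFB2M lower), against 13.1% of all genes. From 2-cell to 8-cell, 7 of the 10 changed, 4 higher and 3 lower, against 52.3% of all genes. From 8-cell to morula, edgeR called 0 of the 10, against 15.4% of all genes, with 2 at an unadjusted p below 0.05 and 0 called by DESeq2, and with 1 called without 8-cell pool A or pool B. From morula to blastocyst, 4 of the 10 changed, all lower, against 23.2% of all genes. The median log2 fold change of the 10 genes was -0.19, 0.39, 0.02, 0.20 and -0.56 over these 5 steps, and that of all genes lay between -0.05 and 0.03.

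TFAM, the packaging and promoter factor, was scarce in the transcriptome until the 2-cell stage and then rose. Its level was 3.04, 6.36 and 4.26 CPM at GV, 4.47, 5.37 and 2.97 CPM at MII and 1.37, 2.40 and 3.23 CPM at the 2-cell stage. It was 78.5, 117 and 84.3 CPM at the 8-cell stage, 102, 117 and 109 CPM in morulae and 18.2, 22.0 and 22.6 CPM in blastocysts. The 9 transcriptomes of the first 3 stages all lay below those of the last 3, and the morula and 8-cell ranges overlapped. From 2-cell to 8-cell, TFAM rose by 5.31 ± 0.69 (SE) on the log2 scale, a 39.8-fold difference (adjusted p = 8.26e-07). From morula to blastocyst it fell by 2.38 ± 0.60 (adjusted p = 0.00477), and the blastocyst libraries remained above all those of oocytes and 2-cell embryos.

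The POLG mRNA, which encodes the catalytic subunit of the mitochondrial replicase, had as few as 4 counts in a transcriptome. It measured 0.685, 1.04 and 1.13 CPM in 2-cell embryos and 6.34, 7.53 and 6.002 CPM in 8-cell embryos, without overlap. The rise of 2.79 ± 1.12 (SE) on the log2 scale had an adjusted p of 0.0395. Leaving out any of the 3 libraries of either stage gave 2.60 to 2.93 and ended the call, while the 18 transcriptomes fitted without the polysome pools gave 2.81 ± 0.45 with an adjusted p of 5.13e-06. The polysome pools of POLG were very uneven, as described below, and the joint model shares 1 estimate of the spread.

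POLG2, the accessory subunit that clamps the replicase on DNA, moved the opposite way to POLG. Its level was 252, 302 and 336 CPM in GV oocytes and 586, 419 and 459 CPM in MII oocytes. At the 2-cell stage it was 108, 95.3 and 92.5 CPM and at the 8-cell stage 17.3, 11.8 and 13.1 CPM. These 4 stages did not overlap with each other. Morulae held 13.4, 10.3 and 11.5 CPM and blastocysts 18.5, 14.3 and 18.8 CPM, and each overlapped with 8-cell embryos but not with the other. From 2-cell to 8-cell POLG2 fell by 2.81 ± 0.82 (SE) on the log2 scale (adjusted p = 0.00613). Between MII and the 2-cell stage its log2 fold change was -2.31 ± 0.79 (adjusted p = 0.0561), and with the transcriptomes alone it was -2.32 ± 0.21 (adjusted p = 1.36e-08). The MII mean was 41.5 times the morula mean.

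TWNK, the helicase, passed the test at none of the 5 steps. Its transcriptome level lay between 6.30 and 12.4 CPM in every library up to the 8-cell stage, then between 19.6 and 29.4 CPM in morulae and blastocysts. The later 2 stages did not overlap with the earlier 4. The step from 8-cell to morula had a log2 fold change of 1.36 ± 0.62 (SE, adjusted p = 0.143), and with the transcriptomes alone it was 1.36 ± 0.28 (adjusted p = 4.12e-04).

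SSBP1, the single-strand binding protein, had the most changes in the transcriptome, at 4 of 5 steps. It measured 120, 204 and 170 CPM in GV oocytes and 21.5, 18.5 and 17.6 CPM in MII oocytes, a log2 fold change of -3.099 ± 0.35 (SE) (adjusted p = 4.45e-07). In 2-cell embryos it measured 39.4, 42.3 and 31.9 CPM and in 8-cell embryos 228, 407 and 307 CPM. The 2-cell and 8-cell libraries were far apart, and the rise was 3.05 ± 0.34 (adjusted p = 1.16e-07). Morulae held 308, 282 and 338 CPM and blastocysts 197, 141 and 139 CPM. The rise of 0.98 ± 0.33 from MII to 2-cell (adjusted p = 0.0470) and the fall by 0.96 ± 0.32 from morula to blastocyst (adjusted p = 0.0318) were the smallest of its changes. The first of these was lost when any of the 6 libraries was left out (0.89 to 1.09) and the second when any but blastocyst A was (-1.02 to -0.86), and both were called with the transcriptomes alone (adjusted p = 0.00266 and 0.00163).

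MGME1, the end-trimming exonuclease, was highest at the 2-cell stage, with 67.1, 64.1 and 68.0 CPM. In 8-cell embryos it measured 19.5, 26.3 and 23.8 CPM, below every 2-cell library, and it fell by 1.52 ± 0.41 (SE) on the log2 scale (adjusted p = 0.00328). GV and MII oocytes lay between 42.5 and 59.0 CPM, and morulae and blastocysts between 12.2 and 20.4 CPM. Among the genes of replication, POLG2 and MGME1 were thus lower after the 2-cell stage, and POLG was higher. SSBP1 was higher than in MII oocytes and 2-cell embryos, but its GV and blastocyst ranges overlapped.

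POLRMT, the RNA polymerase of mitochondria, rose from the 2-cell stage on. Its level was 1.60, 1.52 and 3.01 CPM in 2-cell embryos and 10.1, 24.1 and 15.4 CPM at the 8-cell stage. Morulae held 32.8, 32.8 and 31.8 CPM and blastocysts 44.7, 59.5 and 50.4 CPM. These 4 stages stood in that order without overlap. Only the first step was called, with a log2 fold change of 3.01 ± 0.52 (SE, adjusted p = 4.71e-05), and the later steps gave 0.97 ± 0.48 (adjusted p = 0.186) and 0.67 ± 0.48 (adjusted p = 0.335).

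TFB2M, which melts the promoter together with POLRMT, did not follow its partner. It measured 70.2, 67.5 and 76.2 CPM in GV oocytes and 236, 215 and 342 CPM in MII oocytes, and rose by 1.89 ± 0.30 (SE) on the log2 scale (adjusted p = 4.08e-05). From MII to the 2-cell stage (161, 139 and 120 CPM) it fell by 0.92 ± 0.29 (adjusted p = 0.0352). That call was lost without MII transcriptome C (-0.71) and without each of the 2-cell transcriptomes (-1.03 to -0.82). From 2-cell to 8-cell embryos (129, 166 and 127 CPM) its log2 fold change was 0.01 ± 0.29 (adjusted p = 0.991). The fall by 0.82 ± 0.29 from morulae (177, 198 and 223 CPM) to blastocysts (105, 119 and 114 CPM) had an adjusted p of 0.0413, was lost without any 1 of the 6 libraries (-0.90 to -0.72), and was called with the transcriptomes alone (adjusted p = 0.00211).

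TEFM, the elongation factor, was highest in GV oocytes, with 291, 400 and 388 CPM, and lowest in blastocysts, with 33.2, 27.2 and 27.2 CPM. In MII oocytes it measured 137, 122 and 129 CPM, a fall by 1.47 ± 0.34 (SE) on the log2 scale (adjusted p = 0.00305). It then lay between 141 and 249 CPM in all 9 libraries from the 2-cell stage to the morula, with overlapping ranges. From morula to blastocyst it fell by 2.88 ± 0.36 (adjusted p = 3.93e-06), a 7.39-fold difference.

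TFB1M, the paralogue of TFB2M that methylates the small ribosomal RNA of mitochondria, was high in oocytes and 2-cell embryos and low afterwards. It lay between 216 and 379 CPM in the 9 transcriptomes of the first 3 stages and between 36.3 and 86.3 CPM in the 9 of the last 3. From 2-cell embryos (332, 249 and 216 CPM) to 8-cell embryos (36.3, 49.3 and 67.1 CPM) it fell by 2.38 ± 0.30 (SE) on the log2 scale, a 5.22-fold difference (adjusted p = 6.59e-07). The other 4 steps were not called in the joint model, with log2 fold changes between -0.60 and 0.65.

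**Figure D2:**
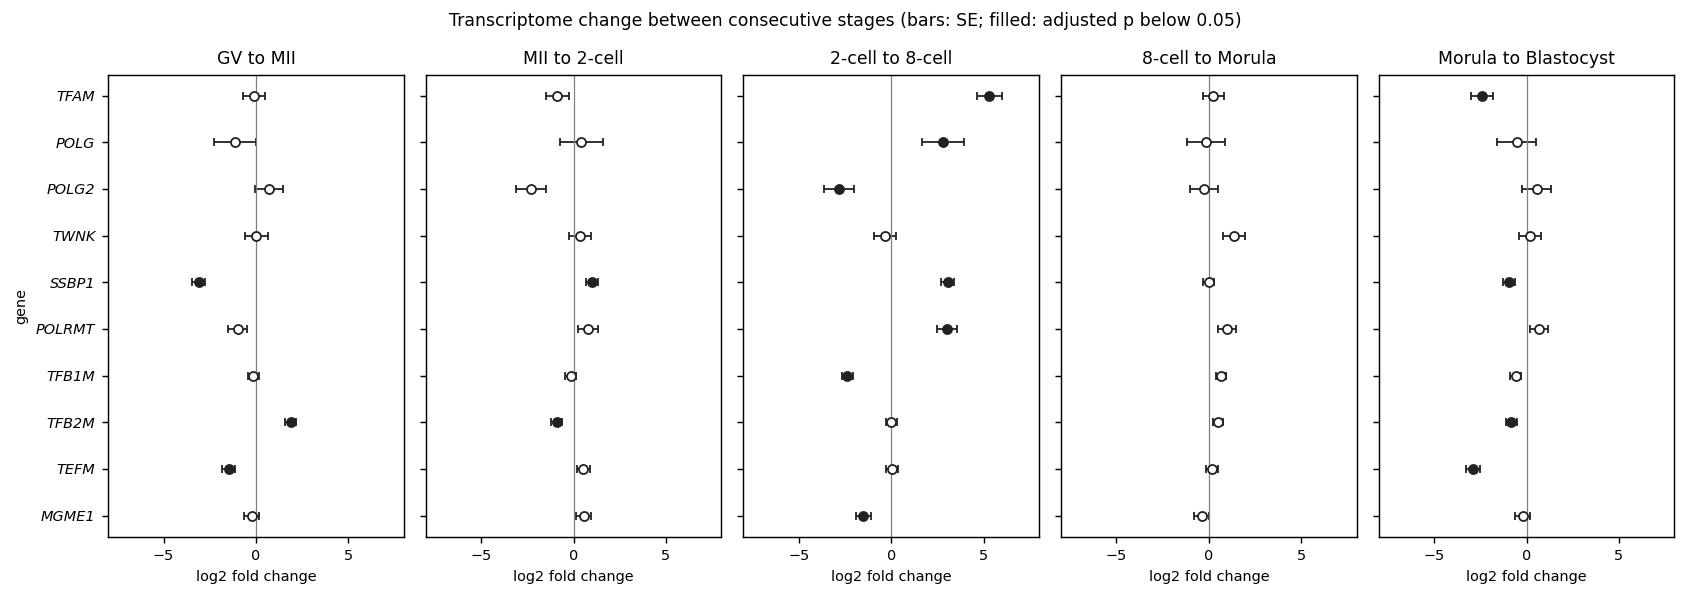
Log2 fold change of the transcriptome level (x axis) of each gene (y axis) for each step between consecutive stages, with bars for the SE and filled points for an adjusted p below 0.05. The 2-cell to 8-cell panel holds 7 filled points on both sides of 0, from 5.31 for TFAM to -2.81 for POLG2, and the 8-cell to morula panel holds none.

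The spread of the transcriptomes alone gave 26 calls over the 5 steps in place of 16, without a change of direction. The 10 further calls were the following: POLG2 and POLRMT from GV to MII, TFAM and POLG2 from MII to 2-cell, TWNK, POLRMT, TFB1M and TFB2M from 8-cell to morula, and POLG2 and TFB1M from morula to blastocyst. The 2 calls from MII to 2-cell fell to 0 without MII transcriptome C or any of the 2-cell transcriptomes, and to 1 without MII transcriptome A or B, GV or 8-cell transcriptome C, any 1 of the morula or blastocyst transcriptomes, or any 1 of the GV, MII, 2-cell or blastocyst pools. The 4 calls from morula to blastocyst fell to 2 without any 1 of the morula transcriptomes or without blastocyst transcriptome B or C. They also fell to 2 with RLE size factors or without the filter on low counts.

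The next question was where these mRNAs stood in polysomes relative to their whole-cell level at the same stage. A polysome pool that lies below the transcriptome holds less of an mRNA, as a share of its library, than the whole cell does. The comparison is of gradient with whole-cell libraries, so it does not by itself set polysomes apart from the other fractions. Over the 6 stages, 34 of 60 differences were called, 10 higher and 24 lower in polysomes. The difference was called for 7 of the 10 genes at GV (39.8% of all genes tested), for 6 at MII (57.5%), for 6 at the 2-cell stage (51.0%), for 8 at the 8-cell stage (59.1%), for 4 in morulae (51.7%) and for 3 in blastocysts (40.1%). The median log2 difference of the 10 genes was -1.70 at GV, -1.30 at MII, -0.81 at the 2-cell stage, -1.48 at the 8-cell stage, -0.71 in morulae and -0.14 in blastocysts. The median of all genes was between -0.26 and 0.18.

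TFB2M was the 1 gene called at all 6 stages, and its polysome level was lower each time. In MII oocytes its pools held 22.6 and 14.5 CPM against 236, 215 and 342 CPM in the transcriptomes, a log2 difference of -3.83 ± 0.38 (SE, adjusted p = 7.86e-09). In GV oocytes the pools held 20.2 and 17.5 CPM, and the difference was -1.92 ± 0.34 (adjusted p = 8.51e-05). At both stages, and at each of the other 4, every pool lay below every transcriptome. Polysome levels of TFB2M were similar in GV and MII oocytes while the transcriptome level rose, and the smallest difference was that of blastocysts, at -1.43 ± 0.34 (adjusted p = 0.00157). In MII oocytes the shortfall was not confined to polysomes. F3 to F5 of gradients A and B averaged 3.56 and 5.88 CPM there, and F8 to F10 averaged 20.3 and 11.4 CPM. In GV oocytes F3 to F5 averaged 42.6 and 67.8 CPM, nearer to the transcriptomes (67.5 to 76.2 CPM).

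TEFM was lower in polysomes at 5 stages, with log2 differences of -3.01 at GV, -3.46 at MII, -2.96 at the 2-cell stage, -2.29 at the 8-cell stage and -2.63 in morulae, each with an SE between 0.41 and 0.44 and an adjusted p of at most 5.47e-05. In morulae its pools held 35.4 and 34.3 CPM against 212, 186 and 249 CPM. In blastocysts they held 30.2 and 10.7 CPM against 33.2, 27.2 and 27.2 CPM, and the groups overlapped there (-0.51, adjusted p = 0.297). At GV no fraction from F3 to F10 held more than 68.1 CPM of TEFM, so the shortfall was not confined to polysomes there. The same held at the 8-cell stage, where F3 to F5 of gradients A and B averaged 9.75 and 12.1 CPM. The transcriptomes of that stage held 161 to 240 CPM.

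SSBP1 was lower in polysomes at 4 stages. At GV its pools held 21.6 and 27.8 CPM against 120 to 204 CPM, a log2 difference of -2.74 ± 0.40 (SE, adjusted p = 6.43e-06). At the 8-cell stage they held 35.5 and 85.5 CPM against 228 to 407 CPM, a difference of -2.37 ± 0.39 (adjusted p = 1.95e-05). The 2-cell difference was -1.51 (adjusted p = 0.00179) and that of morulae was -1.46 (adjusted p = 0.00240), which without morula pool B was -1.02 (adjusted p = 0.0578). In blastocysts the pools (91.5 and 131 CPM) lay just under the transcriptomes (139 to 197 CPM), with a difference of -0.51 that was not called. At GV no fraction from F3 to F10 held more than 32.8 CPM of SSBP1, so the shortfall was not confined to polysomes there. F3 to F5 of gradients A and B averaged 16.1 and 12.6 CPM at the 8-cell stage and 19.8 and 18.4 CPM in morulae. These levels were also below every transcriptome, and below the 32.2 and 77.5 CPM over F8 to F10 at the 8-cell stage.

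TFB1M was lower in polysomes at the first 4 stages, with log2 differences of -1.48 at GV (adjusted p = 0.00110), -1.59 at MII (adjusted p = 3.54e-04), -0.86 at the 2-cell stage (adjusted p = 0.0338) and -1.24 at the 8-cell stage (adjusted p = 0.00310). The 2-cell value rested on single libraries, since it was -0.66 without transcriptome A, -0.95 without pool A and -0.78 without pool B, none of them called. Without 8-cell pool A the 8-cell value was -0.81 (adjusted p = 0.0819). In blastocysts the pools held 72.8 and 56.4 CPM and overlapped with the transcriptomes, at 57.0, 41.7 and 59.8 CPM.

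TFAM changed sides. Its pools held 0.631 and 0.270 CPM against 3.04 to 6.36 CPM at GV, a log2 difference of -3.31 ± 0.76 (SE, adjusted p = 0.00117). At MII they held 0.324 and 1.65 CPM, and the difference of -2.11 (adjusted p = 0.0147) was -1.43 without pool A (adjusted p = 0.164). At the 8-cell stage they held 25.7 and 30.8 CPM against 78.5 to 117 CPM, and in blastocysts 53.1 and 92.1 CPM against 18.2 to 22.6 CPM. Polysome levels thus lay below every transcriptome at the 8-cell stage (-1.72, adjusted p = 0.0311) and above every one in blastocysts (1.79, adjusted p = 0.0261). The first call was lost without transcriptome B or either pool (-1.86 to -1.53) and the second without any transcriptome or pool B (1.34 to 1.83). In the scaling by library totals the blastocyst difference was not called either.

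POLG and POLRMT stood on the other side, with polysome levels above the transcriptome. The POLG pools held 19.0 and 23.7 CPM at GV, 19.0 and 12.2 CPM at MII and 22.3 and 64.5 CPM at the 2-cell stage, where the transcriptomes held at most 1.85 CPM. The log2 differences were 3.76 (SE 1.195, adjusted p = 0.0147), 4.45 ± 1.26 (adjusted p = 0.00431) and 5.50 ± 1.28 (adjusted p = 9.40e-04), and the first missed the threshold without transcriptome C (adjusted p = 0.0512) or pool B (adjusted p = 0.0522). F3 to F5 of gradients A and B averaged 20.65 and 34.2 CPM at GV, 12.5 and 9.85 CPM at MII and 13.5 and 18.1 CPM at the 2-cell stage. The POLG excess over the transcriptomes was therefore not confined to polysomes at these stages. At the 8-cell stage pool A held no POLG count and pool B 40.7 CPM, and in morulae the pools held 2.75 and 46.3 CPM, so neither stage gave a call. In blastocysts both pools (29.9 and 34.1 CPM) exceeded the transcriptomes (3.53, 6.63 and 2.20 CPM), with a difference of 2.95 ± 1.17 (adjusted p = 0.0467) that was lost without any 1 of the 5 libraries (2.63 to 3.47).

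The POLRMT pools held 10.1 and 7.03 CPM at GV, 3.64 and 20.1 CPM at MII, 3.95 and 6.58 CPM at the 2-cell stage and 63.7 and 45.3 CPM at the 8-cell stage. At all 4 stages they exceeded every transcriptome, and the log2 differences were 1.84 ± 0.54 (SE, adjusted p = 0.00873), 3.31 ± 0.57 (adjusted p = 2.89e-05), 1.36 ± 0.54 (adjusted p = 0.0389) and 1.72 ± 0.53 (adjusted p = 0.00773). The GV call was lost without pool A (1.56) and the 2-cell call without transcriptome A (1.21), transcriptome B (1.19) or pool B (0.94). The 2-cell call was also lost with DESeq2, RLE size factors, library totals, no filter on low counts or the replicate block. In morulae (38.8 and 42.8 CPM) and blastocysts (78.3 and 42.1 CPM) the differences were 0.33 and 0.22 and were not called.

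The POLG2 pools lay below every transcriptome at all 6 stages, with log2 differences between -2.67 and -0.98 and SEs between 0.89 and 0.98. The gene was called in 8-cell embryos (-2.23, adjusted p = 0.0449) and morulae (-2.67, adjusted p = 0.0266) only, and the MII value was -2.12 (adjusted p = 0.0519). At the 8-cell stage pool A held no POLG2 count and pool B 5.88 CPM, and the call was lost without pool A (-1.26) or any transcriptome (-2.35 to -2.06). In morulae the pools held 3.76 and 0.0575 CPM, and the call was lost without pool B (-1.65). MGME1 was higher in the 8-cell pools (60.1 and 42.5 CPM) than in the transcriptomes, with a difference of 1.15 ± 0.44 (SE, adjusted p = 0.0283) that was lost without pool A (0.87), transcriptome A (1.03) or transcriptome C (1.17). TWNK was called at none of the 6 stages, with log2 differences between 0.02 and 0.91. Leaving out 8-cell pool A took the number of genes called at that stage from 8 to 5, and leaving out any 1 of the blastocyst transcriptomes or blastocyst pool B took that of blastocysts from 3 to 1.

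**Figure D3:**
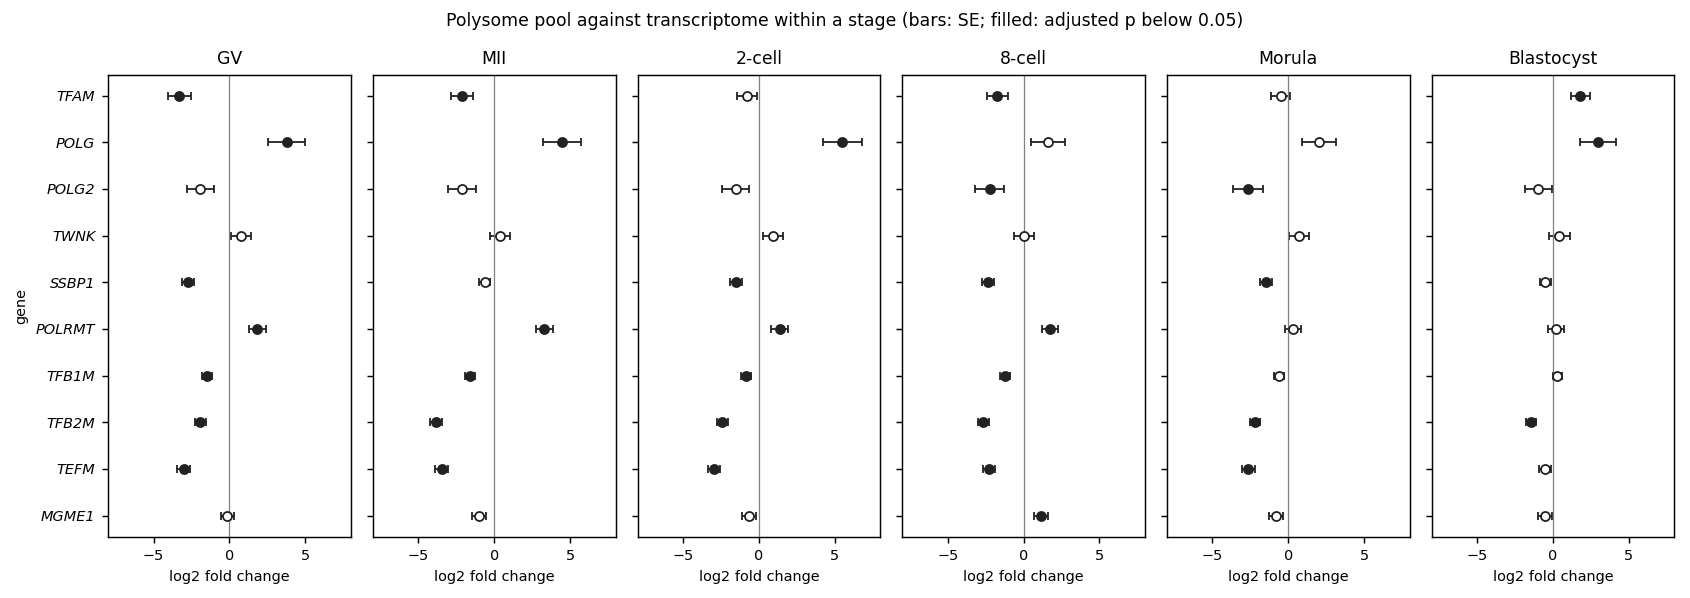
Log2 difference of the polysome pools from the transcriptomes (x axis) for each gene (y axis), in 1 panel per stage, with bars for the SE and filled points for an adjusted p below 0.05. TFB2M is filled and left of 0 in all 6 panels, and POLG lies right of 0 in all 6, with wide bars.

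The polysome level itself was also followed between stages. From 2-cell to 8-cell, 5 of the 10 genes changed (47.3% of all genes tested), all in the direction of their transcriptome: TFAM (4.36 ± 0.80, SE), SSBP1 (2.19 ± 0.41) and POLRMT (3.37 ± 0.64) rose and POLG2 (-3.52 ± 1.03) and TFB1M (-2.77 ± 0.38) fell, with adjusted p-values of at most 0.00767. All but POLG2 were also called with the 12 polysome pools alone. From GV to MII, 1 gene changed (5.43% of all genes), TEFM, which fell by 1.92 ± 0.43 (adjusted p = 0.00831), from 53.9 and 35.5 CPM to 6.77 and 16.8 CPM. That call was lost without GV pool A (-1.59) or MII pool A (-1.43), and with the polysome pools alone (adjusted p = 0.573).

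From 8-cell to morula, where no transcriptome change was called in the joint model, 4 genes changed in polysomes (37.0% of all genes). MGME1 fell by 2.35 ± 0.51 (SE, adjusted p = 0.00112), from 60.1 and 42.5 CPM to 3.33 and 16.7 CPM. TFB1M rose by 1.30 ± 0.36 (adjusted p = 0.00697), TFB2M by 0.97 ± 0.35 (adjusted p = 0.0342) and TWNK by 2.05 ± 0.76 (adjusted p = 0.0378). With the transcriptomes alone, TFB1M (0.65, adjusted p = 0.0202), TFB2M (0.50, adjusted p = 0.0420) and TWNK (1.36, adjusted p = 4.12e-04) also rose. The interaction described below was called for none of TFB1M, TFB2M and TWNK at this step (adjusted p = 0.389, 0.564 and 0.726). The TWNK pools moved from 1.11 and 16.7 CPM to 29.5 and 44.6 CPM, and that call was lost without 8-cell pool A (1.15) or morula pool B (1.74). The TFB1M call was lost without the same libraries (0.86 and 0.80), and the TFB2M call without 8-cell pool B (0.54) or morula pool B (0.61). None of the 4 was called with the polysome pools alone, and MGME1 was the 1 called when scaled to library totals. From MII to 2-cell (8.65% of all genes) and from morula to blastocyst (14.2%), edgeR called 0 of the 10, with 1 gene at an unadjusted p below 0.05 each time and 0 called by DESeq2. Leaving out either MII pool gave 1 call at the first of these steps, and leaving out any 1 of the 8-cell or morula pools or blastocyst pool A gave 1 at the second.

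Whether polysome and transcriptome moved by different amounts was tested as an interaction in the same model. It was called for 2 of the 10 genes from GV to MII (10.6% of all genes tested), for 1 from 8-cell to morula (12.5%) and for 1 from morula to blastocyst (12.3%). From MII to 2-cell (1.81%) and from 2-cell to 8-cell (12.2%) edgeR called 0, with 2 genes each at an unadjusted p below 0.05 and 1 each called by DESeq2. From GV to MII, SSBP1 lost more in the transcriptome than in polysomes, where its pools went from 21.6 and 27.8 CPM to 12.4 and 12.3 CPM (interaction 2.10 ± 0.51, SE, on the log2 scale, adjusted p = 0.00826). TFB2M gained in the transcriptome and not in polysomes (-1.91 ± 0.46, adjusted p = 0.00711). From morula to blastocyst, TEFM lost more in the transcriptome (2.12 ± 0.54, adjusted p = 0.0135), and from 8-cell to morula MGME1 lost more in polysomes (-1.97 ± 0.64, adjusted p = 0.0422).

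These 4 interactions rested in part on single libraries. SSBP1 was not called without GV pool A (1.93), TFB2M not without MII pool B (-1.62) and TEFM not without blastocyst pool A (1.18). MGME1 was not called without any 1 of the 8-cell transcriptomes, morula transcriptome A or C, 8-cell pool A or morula pool A (-2.07 to -1.23), nor without any 1 of the GV, MII or 2-cell transcriptomes or GV pools, which enter through the shared spread. The count of 4 was 2 without GV pool A, 8 without morula pool A and 13 without 8-cell pool B, and POLG, POLG2 and TWNK were at 0, 0 and 1.11 CPM in the pool A that then remained. The changes between stages, the differences between polysomes and transcriptomes and the interactions share libraries and are not independent of each other.

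Finally, the position along the gradient was described by Spearman's rho between the level and the fraction number over F3 to F10 of both gradients (16 libraries per stage), with a two-sided permutation p adjusted over all genes with a mean of at least 1 CPM. A positive rho means that the level was higher towards the heavy fractions. The permutations treat the fractions of a gradient as independent libraries, so this p does not measure the spread between the 2 gradients. At GV, 4 of the 9 genes tested had a trend (36.7% of all genes), since TFAM was below the minimum there and at the 2-cell stage. At MII, 4 of 10 had one (19.3%), at the 8-cell stage 2 of 10 (16.6%) and in morulae 1 of 10 (1.59%). At the 2-cell stage 0 of 9 were called (20.4% of all genes), with 4 at an unadjusted p below 0.05, and in blastocysts 0 of 10 (7.56%), with 2. No second tool was run for this test, and ranks taken within each gradient gave 1 call at the 2-cell stage, POLG2.

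In GV oocytes, POLG2 (rho = 0.91, adjusted permutation p = 3.52e-04), TFB1M (rho = 0.83, adjusted permutation p = 0.00131) and SSBP1 (rho = 0.78, adjusted permutation p = 0.00403) were higher towards the heavy fractions. TFB1M, for instance, had a mean of 68.2 and 62.6 CPM over F3 to F5 of gradients A and B and of 120.5 and 103 CPM over F8 to F10. TFB2M showed the opposite slope (rho = -0.70, adjusted permutation p = 0.0142), from 42.6 and 67.8 CPM over F3 to F5 to 19.6 and 16.9 CPM over F8 to F10, with 2.31 and 8.94 CPM in the free fractions. Of the 4 classes of fractions, the monosome class thus had the highest mean level in both gradients.

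In MII oocytes all 4 trends were negative. TEFM (rho = -0.83, adjusted permutation p = 0.00379) fell from 39.4 and 49.8 CPM over F3 to F5 to 6.11 and 13.6 CPM over F8 to F10. MGME1 (rho = -0.82, adjusted permutation p = 0.00536) fell from 83.3 and 66.1 CPM to 20.3 and 17.3 CPM. TFB1M (rho = -0.76, adjusted permutation p = 0.0117) and TWNK (rho = -0.75, adjusted permutation p = 0.0128) were also lower in the heavy fractions, TWNK with 46.5 and 27.3 CPM over F3 to F5 and 12.5 and 6.39 CPM over F8 to F10. TFB1M therefore had a positive rho in GV and a negative rho in MII oocytes, and both gradients of each stage had that sign.

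SSBP1 was the gene with a called trend after the 2-cell stage at 2 stages, rho = 0.67 in 8-cell embryos (adjusted permutation p = 0.0390) and rho = 0.80 in morulae (adjusted permutation p = 0.0330), and in blastocysts its rho was 0.69 (adjusted permutation p = 0.0507). In morulae it averaged 19.8 and 18.4 CPM over F3 to F5 and 110 and 60.7 CPM over F8 to F10. The free fractions F1 and F2 averaged 125.5 and 18.7 CPM of SSBP1 at the 8-cell stage and 52.55 and 90.3 CPM in morulae. Both SSBP1 calls were lost when F1 to F10 were used. POLG2 had a negative rho in 8-cell embryos (-0.69, adjusted permutation p = 0.0344), where gradient A held no count of it in F5 and from F7 to F10. Ranks taken within each gradient did not call it. No trend was called for POLG, POLRMT or TFAM at any stage tested. A single gradient of 8 fractions gave 1 call over all stages, whether A or B was left out, and the calls of MII oocytes, 8-cell embryos and morulae were all lost, with the same sign of rho in each gradient.

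**Figure D4:**
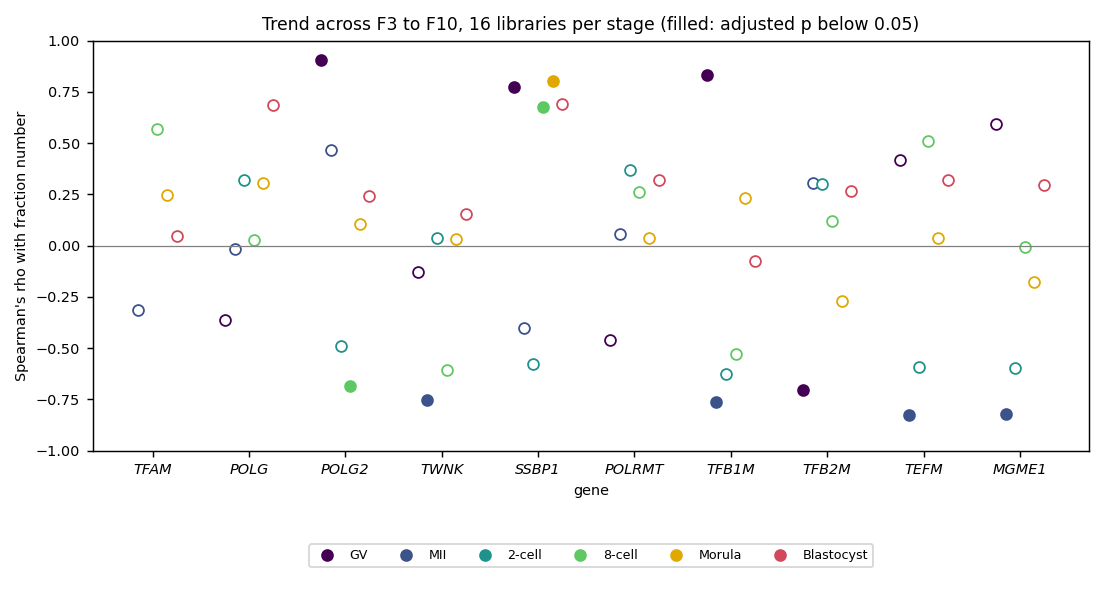
Spearman's rho between level and fraction number over F3 to F10 (y axis) for each gene (x axis) and stage (colour), over 16 libraries, with filled points for an adjusted p below 0.05. The 4 filled MII points lie between -0.83 and -0.75, and the 3 highest filled points at GV lie between 0.78 and 0.91.

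**Figure D5:**
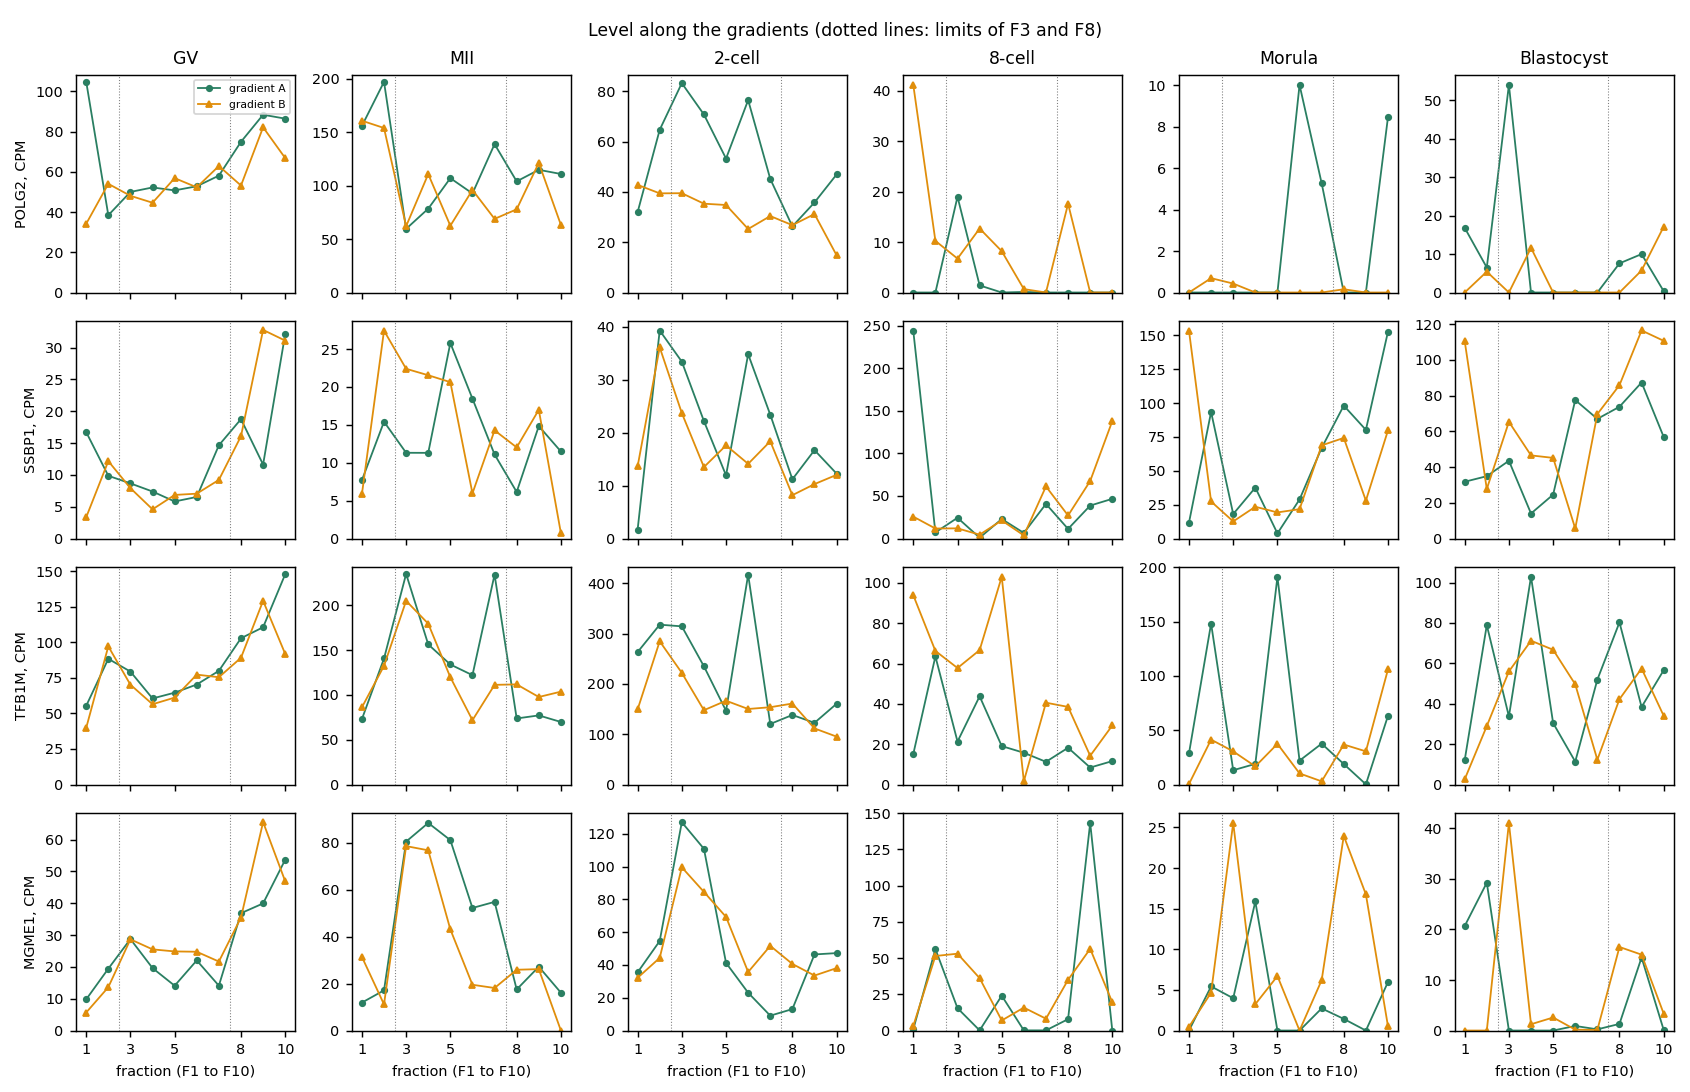
Level in CPM (y axis) of POLG2, SSBP1, TFB1M and MGME1 along F1 to F10 (x axis) at each stage, with 1 line per gradient and dotted lines at the start of F3 and of F8. From F3 on neither gradient of GV oocytes reaches 0 for these genes, though the gradients part in heavy fractions (SSBP1 in F9, 11.6 CPM in A and 32.8 CPM in B). POLG2 alternates between 0 and single peaks in 8-cell embryos, morulae and blastocysts.

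The fractions of the later stages were uneven for the scarce genes. POLG was at 0 in 29 of the 120 fraction libraries and POLG2 in 34, whereas SSBP1 and TFB1M were at 0 in none. In 8-cell gradient A the POLG signal lay in F2 to F5 and was at 0 from F6 to F10, and in gradient B it lay mostly in F7 to F10. Across F1 to F10, Pearson's r of log2(CPM + 1) between the 2 gradients lay between 0.03 (POLG2) and 0.85 (POLRMT) at GV. It lay between -0.59 (POLG) and 0.66 (SSBP1) at the 8-cell stage and between -0.50 (POLRMT) and 0.36 (TEFM) in morulae. In blastocysts the range was -0.33 (POLRMT) to 0.67 (POLG). These r values are over 10 fractions each and are a description.

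The other genes of the pathway were counted from 5 lists with 52 genes, of which 50 had a row and 49 passed the filter. The lists were written with earlier results of these data known. From 2-cell to 8-cell, 19 of the 49 rose and 10 fell in the transcriptome, where 52.3% of all genes tested were called, so that the 49 stood near the share of all genes. Among nucleotide supply genes, which provide the building blocks of mitochondrial DNA, 5 of 8 rose and 0 fell, led by MPV17, an inner membrane protein linked to mitochondrial DNA maintenance, from 3.83 ± 0.363 to 44.3 ± 28.5 CPM (SD, n = 3; log2 fold change 3.53, adjusted p = 2.41e-07). Of 16 genes of mitochondrial RNA processing and decay, 7 rose and 3 fell, and TRMT10C, a subunit of the mitochondrial RNase P, went from 15.8 ± 1.73 to 165 ± 58.6 CPM. Of 8 further replication and repair enzymes, 3 rose and 3 fell, and PRIMPOL, a primase and polymerase, fell from 370 ± 16.1 to 20.4 ± 8.14 CPM (log2 fold change -4.18, adjusted p = 4.39e-06).

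Of 9 nucleoid and termination factors, 2 rose and 2 fell at this step, and ATAD3A, a membrane ATPase found with nucleoids, rose from 0.0520 ± 0.0451 to 11.4 ± 3.53 CPM. Its 2-cell level lay below the floor of 3 counts, so the size of the rise is not resolved. Of 8 nuclear regulators, 2 rose and 2 fell, and GABPA, a transcription factor of many nuclear genes for mitochondria, rose from 21.7 ± 7.15 to 779 ± 127 CPM (log2 fold change 5.17, adjusted p = 3.64e-08). From 8-cell to morula 5 of the 49 rose and 1 fell (15.4% of all genes called), and from morula to blastocyst 3 rose and 14 fell (23.2%). In polysomes against the transcriptome, 9 of the 49 were higher and 14 lower at GV (39.8% of all genes called), 17 and 19 at MII (57.5%) and 14 and 18 at the 2-cell stage (51.0%). The counts were 13 and 16 at the 8-cell stage (59.1%), 17 and 17 for morulae (51.7%) and 15 and 8 for blastocysts (40.1%).

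The levels of the 10 genes did not move as a block. Over the 18 transcriptomes, Pearson's r of log2(CPM + 1) was highest for TFAM with POLG (0.93), POLG2 with TFB1M (0.92) and TFB1M with MGME1 (0.90), and lowest for POLRMT with MGME1 (-0.93) and POLG2 with POLRMT (-0.91). The median over the 45 pairs was -0.05, and 19 pairs were positive. These libraries come from 6 stages with 3 each, so that the r values mostly compare stages. The genes whose level over the 30 libraries of the model was most like that of TFAM were PHF5A (r = 0.97) and GRAMD2B (r = 0.97). For POLG they were TARS2 (r = 0.89) and D2HGDH (r = 0.88), for TWNK ZNF496 (r = 0.87) and RAB11FIP4 (r = 0.86), and for POLRMT ACSS1 (r = 0.95) and SORD (r = 0.95).

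The libraries do not mark strand, so reads from sequence that the transcripts of overlapping genes share cannot be told apart. The spans of 4 of the 10 genes overlap another gene with a row in the reference annotation (ARS-UCD2.0). Whether their transcripts share sequence was not examined. For POLG this is FANCI, which was at 280, 267 and 221 CPM in 2-cell embryos and 43.4, 41.2 and 42.2 CPM in 8-cell embryos, a direction opposite to that of POLG. FANCI was also lower in polysomes at MII (-2.66, adjusted p = 2.77e-04), where POLG was higher. For POLRMT it is HCN2, which fell from 2-cell to 8-cell (log2 fold change -1.54, adjusted p = 0.00902), where POLRMT rose. HCN2 was higher in polysomes at all 6 stages, for instance by 4.85 on the log2 scale at GV (adjusted p = 1.79e-07). POLRMT was higher there as well at GV, MII, the 2-cell stage and the 8-cell stage. The GV pools held 42.4 and 113 CPM of HCN2 and 10.1 and 7.03 CPM of POLRMT, and the part of HCN2 reads in the latter was not tested. TFB1M overlaps TIAM2, which fell from 2-cell to 8-cell as well (-2.94, adjusted p = 3.07e-06), from between 51.5 and 55.1 CPM to between 4.30 and 8.79 CPM, and CLDN20. TIAM2 was higher in polysomes at GV (2.88), MII (1.88), the 2-cell stage (2.96) and the 8-cell stage (3.05), where TFB1M was lower. TFAM overlaps ZNF239, which lay at or under 5.06 CPM in the 2-cell and 8-cell transcriptomes and was called at no step.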

How the data were processed

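RNA of 120 gradient fractions and 18 transcriptomes was measured with a Smart-seq kit. The authors quantified reads with Salmon against bovine transcripts, and the table they deposited holds expected counts of 16706 symbols and 138 libraries, not normalized. The paper names the ARS-UCD1.2 assembly and the submitters' processing notes UMD3.1, so no coordinates are given. Of the values, 11.7% were not whole, and they were rounded. Columns carry stage, fraction and letter, and 0 were left unmapped. Of 78 replicate pairs compared, 0 were identical. Groups follow the labelled stage.

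The 10 genes and the gene lists were chosen with earlier results of these data known. Named besides the 10 were the 2 genes most correlated with TFAM, POLG, TWNK and POLRMT, and per list the called gene with the largest 2-cell to 8-cell change. Genes overlapping the 10 were named as well, outside that rule.

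Computation used R 4.3.3, DESeq2 1.42.0, limma 3.58.1, edgeR 4.0.16, Python 3.11.15, scipy 1.17.1, pandas 2.3.3 and numpy 2.4.6. Tests were two-sided: the edgeR quasi-likelihood test after filterByExpr with TMM, on 30 libraries in 12 groups, and Spearman's rho with 100000 permutations on log2(CPM + 1). Both were tested on simulated data. P-values were adjusted by Benjamini-Hochberg over all genes, with a threshold of 0.05. Floors are 3 counts of the library total and cover counting error only. The alternatives changed the tool, scaling, filter, pooling of fractions, model, a replicate block and each library in turn.

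TK2, TYMP, SOX2, gene sequences and promoter motifs were not analysed here. Lengths of transcripts were not used here, so levels were not ordered between genes. The reference table was used for names and overlaps.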

Additional observations from a re-analysis of the deposited data

Results flagged for a closer look

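A difference between the polysome and the transcriptome change that was itself called flagged 4 results. For SSBP1 from GV to MII the interaction was 2.10 on the log2 scale, with a transcriptome change of -3.10 and a polysome change of -0.99. For TFB2M over the same step it was -1.91, with a transcriptome change of 1.89 and a polysome change of -0.02. For TEFM from morula to blastocyst it was 2.12, with changes of -2.88 and -0.77. For MGME1 from 8-cell to morula it was -1.97, with changes of -0.38 and -2.35. In each case the libraries without which the call was lost are named with the interactions above. No group held the 4 samples that a check for single outlying libraries needs.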

How the results depend on the processing

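Of 75 calls among the 10 genes, 64 were no trends, and 26 of these were lost on leaving out 1 library of the groups compared. The other 11 were trends, all of which were lost without gradient A or without gradient B. Another alternative ended 25 of the 75, 36 were kept under all of these settings, and 0 turned direction on leaving out a library or gradient. The 16 transcriptome changes became 26 with the transcriptomes alone, and the 10 polysome changes became 4 with the polysome pools alone. The 4 interactions became 8 with F6 to F10 pooled. The 11 trends became 6 with F1 to F10, where the rho of TFB2M at GV turned to 0.0845 (adjusted permutation p = 0.82). With F1 to F10 the trend calls of MII oocytes, 8-cell embryos and morulae each fell to 0. The causes were not tested. Leaving out 1 library gave 12 to 18 transcriptome changes, 30 to 40 differences of polysomes from transcriptomes, 9 to 15 polysome changes and 2 to 13 interactions, and an arm left with 1 pool was assumed to vary like the others. Leaving out gradient A or B gave 1 trend each. Scaling to library totals moved the median log2 fold change of all genes by up to 0.47 (MII to 2-cell transcriptome) and split the polysome changes into 3 higher and 5 lower in place of 6 and 4. DESeq2 split the interactions into 4 higher and 2 lower in place of 2 and 2. Library totals gave 2 polysome changes from GV to MII in place of 1, and without the filter on low counts 1 transcriptome change was called from MII to 2-cell in place of 2.

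With the letter as a replicate block, the calls were 14 transcriptome changes, 30 differences of polysomes from transcriptomes, 10 polysome changes and 4 interactions, and ranking within gradients gave 13 trends. Deviations of libraries with the same letter had a median r of 0.00283 over 147 pairs (from -0.16 to 0.0828), against -0.00195 for other letters. These values cannot decide whether libraries of the same letter share an origin, because each group held few libraries. Per the paper, transcriptomes and gradients of a stage came from the same batches, and the labels do not say which libraries belong together. Depth limits POLG most, at as few as 4 counts in a transcriptome.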
